A study of Arabidopsis thaliana with 6 samples.

Results

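The genes described here are 10 loci of Arabidopsis thaliana that make aliphatic glucosinolates or regulate their synthesis. They were chosen by locus identifier, with no measured value in the rule, but with earlier results of these data known. They are 10 of the 32627 loci (12 of 37118 transcript models) in the deposited table. They comprise 7 enzyme genes, BCAT4 (AT3G19710), MAM1 (AT5G23010), MAM3 (AT5G23020), CYP79F1 (AT1G16410), CYP79F2 (AT1G16400), CYP83A1 (AT4G13770) and UGT74C1 (AT2G31790), and 3 regulator genes, MYB28 (AT5G61420), MYB29 (AT5G07690) and MYB76 (AT5G07700). RNA came from roots kept in darkness (root_dark, 3 arrays) and from roots exposed to white light (root_light, 3 arrays), the condition that the labels name as the control. All plants grew for 12 days on Murashige and Skoog medium at reduced strength, and white light at 75 µmol per m2 and second reached the shoots of both groups and the roots of the lit group. The labels give no accession, mutation or transgene, and they describe each replicate as its own in vitro plate. Values are log2 signals of one-colour NimbleGen arrays, in which a DNA probe set reports each transcript model.

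Glucosinolates are sulfur-rich compounds of the cabbage order that release toxic products when tissue is damaged. The aliphatic kind starts from methionine. Its side chain is first lengthened by an aminotransferase, a condensing enzyme of the MAM type, an isomerase and a dehydrogenase. Cytochromes P450 of the CYP79F type then form an aldoxime, CYP83A1 oxidises it, and glutathione transfer, C-S cleavage, glucosylation and sulfation build the core, after which the side chain is modified. MYB28, MYB29 and MYB76 are transcriptional activators of this branch, whereas the indolic branch starts from tryptophan through CYP79B2 and CYP79B3. Roots both make and import glucosinolates.

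The arrays correlated with each other at 0.9885 to 0.9954 within a group and at 0.9807 to 0.9892 between groups (Pearson r over models, which are not independent). Light replicate 3 stood apart from the other light arrays on the second principal component, which took 24.2% of the variance, with a score of 45.3 against -37.2 and -34.8. Dark replicates 1, 2 and 3 scored 10.3, -11.1 and 27.4 on that component, so replicate 3 was the highest array of each group. Results are therefore also given without single arrays where a call changed. The scale ends at 15.92, and differences may be compressed close to that value, which was not tested. The fit in limma was made on all models and the adjusted p was taken over all of them, with a threshold of 0.05. In it, 3.27% of all loci were lower and 2.46% were higher in dark-grown roots.

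Dark-grown roots had less transcript of 4 of the 10 genes, and none of the 10 was higher. BCAT4, the aminotransferase that starts the elongation of methionine, and UGT74C1, a glucosyltransferase of the core, were lowest relative to light-grown roots, at 41.9% and 42.1% of the light level. MAM1, which condenses the elongating chain, and CYP83A1, which oxidises the aldoximes, were at 53.2% and 57.7%. These 4 of 10 stand beside the 3.27% of all loci that were lower. At an unadjusted p under 0.05, 7 of the 10 were lower and 0 were higher, where 9.08% and 12.1% of all loci were. In 7 of the 10 every dark array lay below every light array, which held for 12.0% of all loci. The median difference, dark minus light, was -0.60 on the log2 scale over the 10 genes and 0.01 over all loci. Earlier results were known when the 10 were chosen, so these shares and medians are a description and no test. In bulk roots, fewer cells that express a gene and less RNA per cell cannot be told apart.

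**Figure D1:**
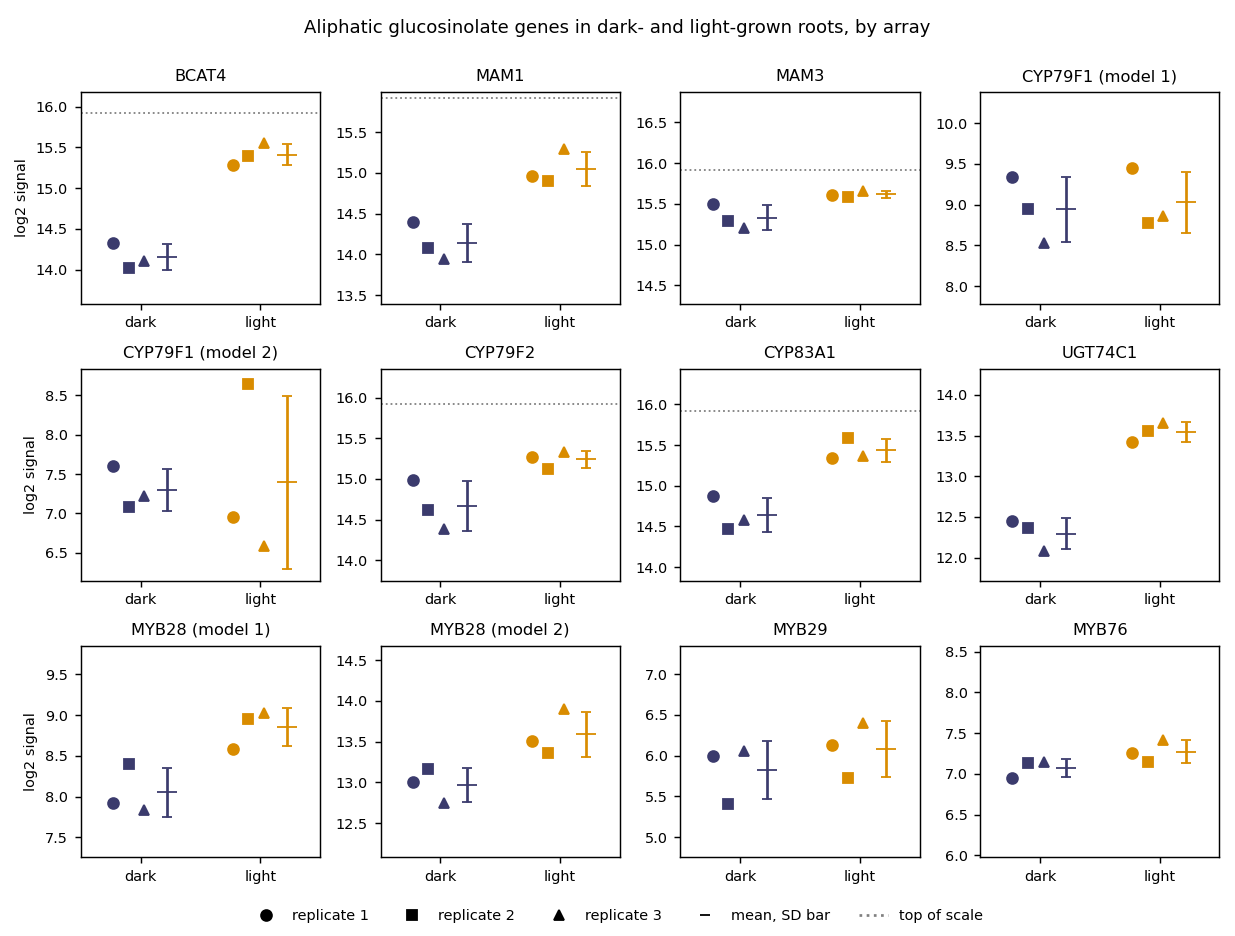
Log2 signal of the 12 transcript models of the 10 loci in each array, dark left and light right, with one symbol per replicate and the mean and SD beside them; the dotted line is the top of the scale at 15.92. BCAT4, MAM1, CYP83A1 and UGT74C1 have every dark array below every light array, whereas CYP79F1, MYB29 and MYB76 overlap.

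Among the chain elongation genes, BCAT4 read 14.33, 14.02 and 14.11 in dark-grown roots and 15.29, 15.39 and 15.55 in light-grown roots. The groups were separated by 0.96, more than the range within either. It fell by 1.26 in dark-grown roots (SE 0.12, 95% interval -1.55 to -0.97, adjusted p = 0.00511 in limma, n = 3 arrays per group). MAM1, a methylthioalkylmalate synthase of the early elongation cycles, read 14.40, 14.08 and 13.94 in dark-grown roots, against 14.96, 14.90 and 15.29 in light-grown roots. Dark replicate 1 was the dark array closest to the light group. MAM1 fell by 0.91 (SE 0.16, 95% interval -1.32 to -0.50, adjusted p = 0.0368 in limma). That call was lost when any 1 of the 6 arrays was left out, with adjusted p between 0.0556 and 0.137 and differences between -1.04 and -0.79.

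MAM3 encodes the related synthase that accepts the full range of chain lengths and is the neighbour of MAM1 in the genome, with 0 protein-coding genes between them in the RefSeq table. Its values were 15.50, 15.29 and 15.20 in dark-grown roots and 15.61, 15.58 and 15.66 in light-grown roots. The groups did not overlap, but all 6 values lay in the last log2 unit of the scale. The difference of -0.29 (SE 0.10, 95% interval -0.53 to -0.04) did not pass (adjusted p = 0.175 in limma). The light mean of MAM3 was 0.30 below the top of the scale, that of MAM1 0.87 and that of BCAT4 0.51. Whether closeness to the top reduced any of these differences was not tested.

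A pair of P450 genes serves the next step, and neither passed the test. CYP79F2, which acts on long-chain methionine derivatives, had 14.99, 14.62 and 14.39 in dark-grown roots and 15.27, 15.12 and 15.33 in light-grown roots. Here too the arrays of the groups did not overlap, and the dark arrays spread more (SD 0.30) than the light arrays (SD 0.11). Its difference of -0.57 (SE 0.17, 95% interval -0.99 to -0.16) did not pass (adjusted p = 0.122 in limma). CYP79F1, which takes both short and long chains, had 9.34, 8.95 and 8.53 in dark-grown roots and 9.45, 8.77 and 8.86 in light-grown roots for its brighter model. Its groups overlapped and differed by -0.09 (SE 0.27, 95% interval -0.76 to 0.58, adjusted p = 0.906 in limma).

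The second CYP79F1 model read 7.60, 7.08 and 7.22 in dark-grown roots and 6.95, 8.64 and 6.59 in light-grown roots, with light replicate 2 far above the other light arrays. CYP79F1 and CYP79F2 are neighbours, with 0 protein-coding genes between them, and have similar sequences. Their probes may read each other's transcripts. Probe levels cannot be compared between genes, so the higher signal of CYP79F2 does not rank it above CYP79F1.

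CYP83A1 read 14.87, 14.47 and 14.58 in dark-grown roots and 15.34, 15.59 and 15.37 in light-grown roots. Its groups were 0.47 apart at their closest arrays, dark replicate 1 and light replicate 1. It fell by 0.79 (SE 0.13, 95% interval -1.13 to -0.46, adjusted p = 0.0306 in limma), and the call was kept only without dark replicate 1 (adjusted p = 0.0419) among the fits that left out 1 array, the other 5 giving 0.0715 to 0.109. UGT74C1 read 12.45, 12.36 and 12.08 in dark-grown roots and 13.42, 13.55 and 13.66 in light-grown roots. With a light mean 2.38 below the top, it was the called gene of the 10 with the light mean farthest from the top. It fell by 1.25 (SE 0.13, 95% interval -1.56 to -0.94, adjusted p = 0.00648 in limma). BCAT4 and UGT74C1 were called in each of the 6 fits without 1 array. The count of called genes among the 10 was 2 in each of those fits except the one without dark replicate 1, where it was 3.

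None of the 3 regulators passed the test, and the 3 differences were all below 0. MYB28, the main activator of aliphatic glucosinolate genes, had 2 transcript models. The brighter one read 13.00, 13.16 and 12.75 in dark-grown roots and 13.51, 13.36 and 13.90 in light-grown roots, a difference of -0.62 (SE 0.18, 95% interval -1.06 to -0.18, adjusted p = 0.118 in limma). The dimmer one read 7.92, 8.40 and 7.84 in dark-grown roots and 8.59, 8.95 and 9.03 in light-grown roots, a difference of -0.80 (SE 0.19, adjusted p = 0.0809 in limma). In both models every dark array lay below every light array. With a variance prior that follows the signal level and is robust to outliers, MYB28 passed (adjusted p = 0.0334 in limma). MAM3 (0.0396) and CYP79F2 (0.0331) passed with it too. That prior raised the calls over all models from 1196 to 1852 lower and from 903 to 1879 higher.

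MYB29, which activates the same genes and is known for a role in their response to methyl jasmonate, read 5.99, 5.41 and 6.06 in dark-grown roots and 6.13, 5.72 and 6.40 in light-grown roots. MYB76, a further activator, read 6.95, 7.13 and 7.15 in dark-grown roots and 7.26, 7.14 and 7.42 in light-grown roots. Both pairs of groups overlapped, with differences of -0.26 (SE 0.25, 95% interval -0.87 to 0.34, adjusted p = 0.632 in limma) and -0.20 (SE 0.11, 95% interval -0.46 to 0.07, adjusted p = 0.372 in limma). MYB29 stood at the 5.98 percentile of mean signal over all models and MYB76 at the 21.5 percentile. The table holds no detection calls, so whether these signals exceed background was not tested. MYB29 and MYB76 are also neighbours, with 0 protein-coding genes between them.

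**Figure D2:**
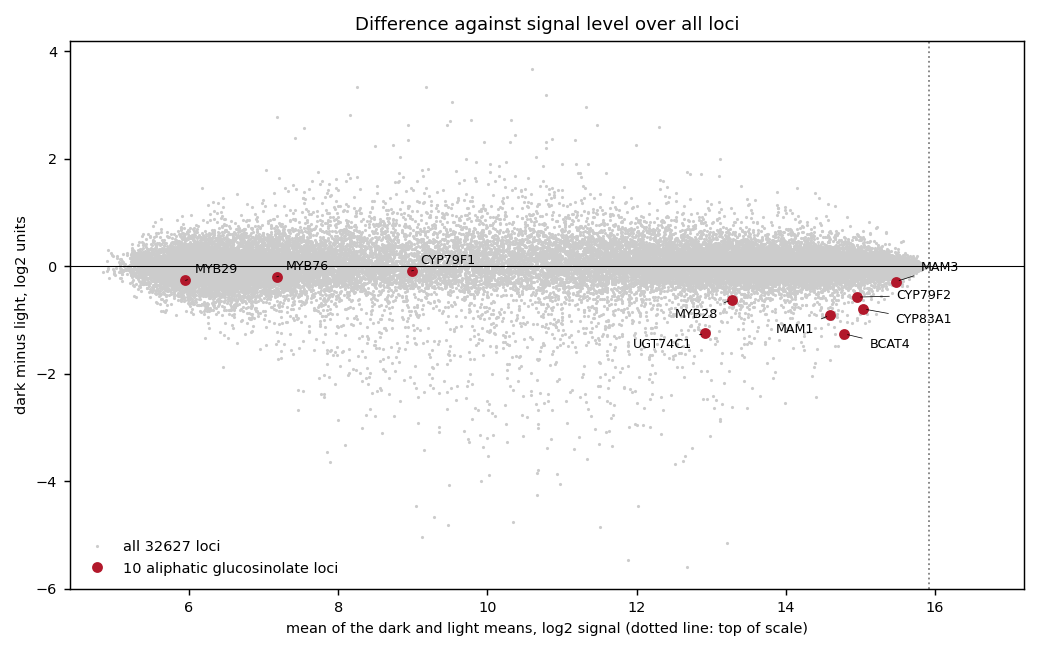
Difference (dark minus light, log2 units) against mean log2 signal for all 32627 loci in grey and the 10 aliphatic glucosinolate loci in red; the dotted line is the top of the scale at 15.92. The cloud narrows towards the top, where MAM3, CYP79F2 and CYP83A1 lie, and MYB29 and MYB76 lie at the dim end.

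The plot of difference against signal level shows where the 10 genes sit. MAM3, CYP79F2 and CYP83A1 had means within 1 log2 unit of the top. Over all loci that close to the top, 0.701% (30 of 4278) were called lower in dark-grown roots. CYP83A1 was among these 30.

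Within the groups, the enzyme genes often put the arrays in the same order. Dark replicate 1 was the highest dark array for 7 of the 7 enzymes, and dark replicate 3 was the lowest for 5. Among the light arrays, replicate 3 was the highest for 5 of the 7. Over the 10 genes dark replicate 1 was still the highest dark array for 7, as no regulator had its highest dark value there. Light replicate 3 was the highest light array for 8 of the 10. The shares of all loci with these orders were not computed. After each gene was centred on its mean over the 6 arrays, the 7 enzymes averaged -0.12, -0.42 and -0.56 in dark-grown roots and 0.37, 0.31 and 0.43 in light-grown roots. The dark arrays thus spread over 0.44 and the light arrays over 0.12, against a gap of 0.43 between the closest arrays of the groups.

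**Figure D3:**
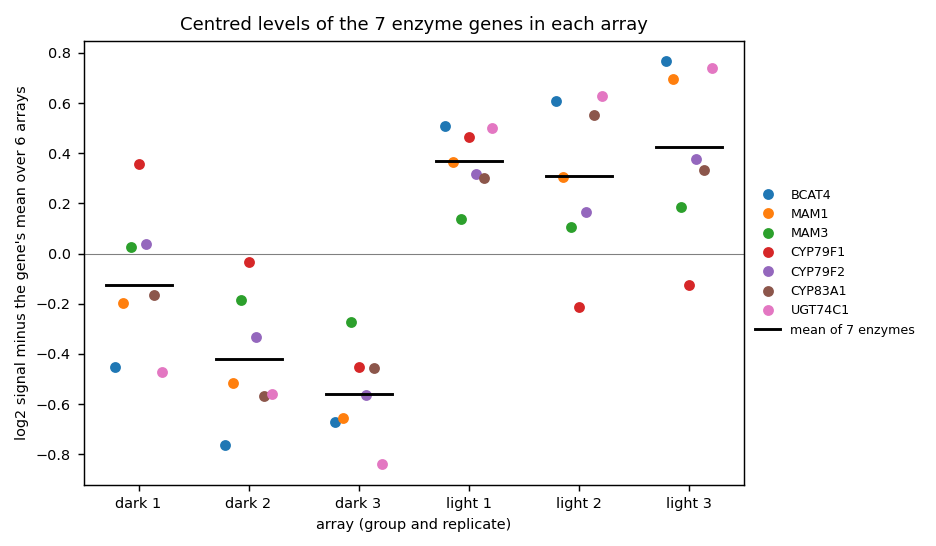
Log2 signal of each of the 7 enzyme genes minus its own mean over 6 arrays, by array, with a black bar at the mean of the 7. The bars lie between -0.56 and -0.12 in dark arrays and between 0.31 and 0.43 in light arrays, and CYP79F1 is the only gene whose dark and light values overlap.

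The other genes of the pathway were read as 6 lists with 64 loci. Of these 64, 10 were lower in dark-grown roots and 0 were higher (18 and 7 at an unadjusted p under 0.05), with a median difference of -0.05. Over all loci 3.27% were lower and 2.46% higher, and 9.08% and 12.1% at an unadjusted p under 0.05, so the 7 higher ones are a share close to that of all loci. Leaving out any 1 of the 6 arrays brought the 10 to between 2 (without dark replicate 2 or 3) and 6 (without dark replicate 1). In the 3 lists nearest to the 10 genes, which hold the other elongation, core and side chain genes, 7 of 26 were lower and 19 did not pass.

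In chain elongation, 2 of the 6 other genes fell and 4 did not pass (median -0.43), where 3.27% of all loci were lower. BASS5, the plastid transporter that carries the elongated keto acids, read 14.25, 14.18 and 14.06 in dark-grown roots and 14.88, 15.19 and 15.08 in light-grown roots. It fell by 0.89 (SE 0.11, adjusted p = 0.0118 in limma), and its second model fell by 0.93 (SE 0.16, adjusted p = 0.0351). IPMI SSU3, a small subunit of the isomerase, read 14.30, 14.03 and 13.92 in dark-grown roots and 14.67, 15.14 and 15.18 in light-grown roots, and fell by 0.91 (SE 0.18, adjusted p = 0.0449 in limma). In all 6 genes the dark arrays lay below the light arrays, as they did in 12.0% of all loci. BASS5 lost its call without dark replicate 2 or 3 (adjusted p = 0.0563 and 0.0521), and IPMI SSU3 without each array other than light replicate 1 (0.0896 to 0.157).

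The dehydrogenase gene IPMDH1 showed how the reading depends on the model. Its brightest model, 0.29 below the top in light-grown roots, differed by -0.22 (SE 0.08, adjusted p = 0.183 in limma). A dimmer model, chosen after its values were seen, read 9.31, 9.15 and 9.03 in dark-grown roots and 10.04, 10.12 and 10.24 in light-grown roots. It fell by 0.97 (SE 0.10, adjusted p = 0.00799 in limma).

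Of 10 further core and cofactor genes, 2 fell and 8 did not pass (median -0.27), where 3.27% of all loci were lower. The 2 are both glutathione transferases assigned to the aliphatic branch. GSTU20 read 14.20, 14.12 and 13.94 in dark-grown roots and 15.05, 15.15 and 15.44 in light-grown roots, and fell by 1.13 (SE 0.13, adjusted p = 0.0104 in limma). GSTF11 read 10.47, 10.11 and 9.93 in dark-grown roots and 11.16, 11.36 and 11.66 in light-grown roots, and fell by 1.22 (SE 0.19, adjusted p = 0.0240 in limma). All 10 differences were below 0, from -1.22 to -0.03. GSTU20 kept its call in each of the 6 fits without 1 array, whereas GSTF11 lost it without dark replicates 2 or 3 or light replicates 2 or 3 (0.0555 to 0.1003).

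Side chain modification gave 3 lower genes of 10 and 7 that did not pass (median -0.07), where 3.27% of all loci were lower. Of the 10 differences 6 were below 0 and 4 above. FMO GS-OX3, a flavin monooxygenase that oxidises the sulfur of the side chain, read 10.34, 10.04 and 10.16 in dark-grown roots and 11.68, 11.55 and 11.84 in light-grown roots. It fell by 1.51 (SE 0.12, adjusted p = 0.00295 in limma), the largest difference among the 74 glucosinolate loci, and was called in each fit without 1 array. FMO GS-OX1, of the same family, read 11.39, 11.13 and 10.75 in dark-grown roots and 12.43, 12.07 and 12.05 in light-grown roots, and fell by 1.09 (SE 0.20, adjusted p = 0.0360 in limma). FMO GS-OX2, GS-OX4 and GS-OX5, chosen after their values were seen, differed by -0.22 (SE 0.23), 0.04 (SE 0.08) and 0.01 (SE 0.08). These 3 did not pass, and their groups overlapped. AOP2, an oxygenase that makes alkenyl side chains, read 8.32, 8.40 and 8.41 in dark-grown roots and 9.22, 9.13 and 9.70 in light-grown roots, and fell by 0.97 (SE 0.16, adjusted p = 0.0289 in limma). FMO GS-OX1 was not called without any 1 array (0.0582 to 0.124), and AOP2 was called only without light replicate 3 (0.0176, against 0.0554 to 0.114).

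**Figure D4:**
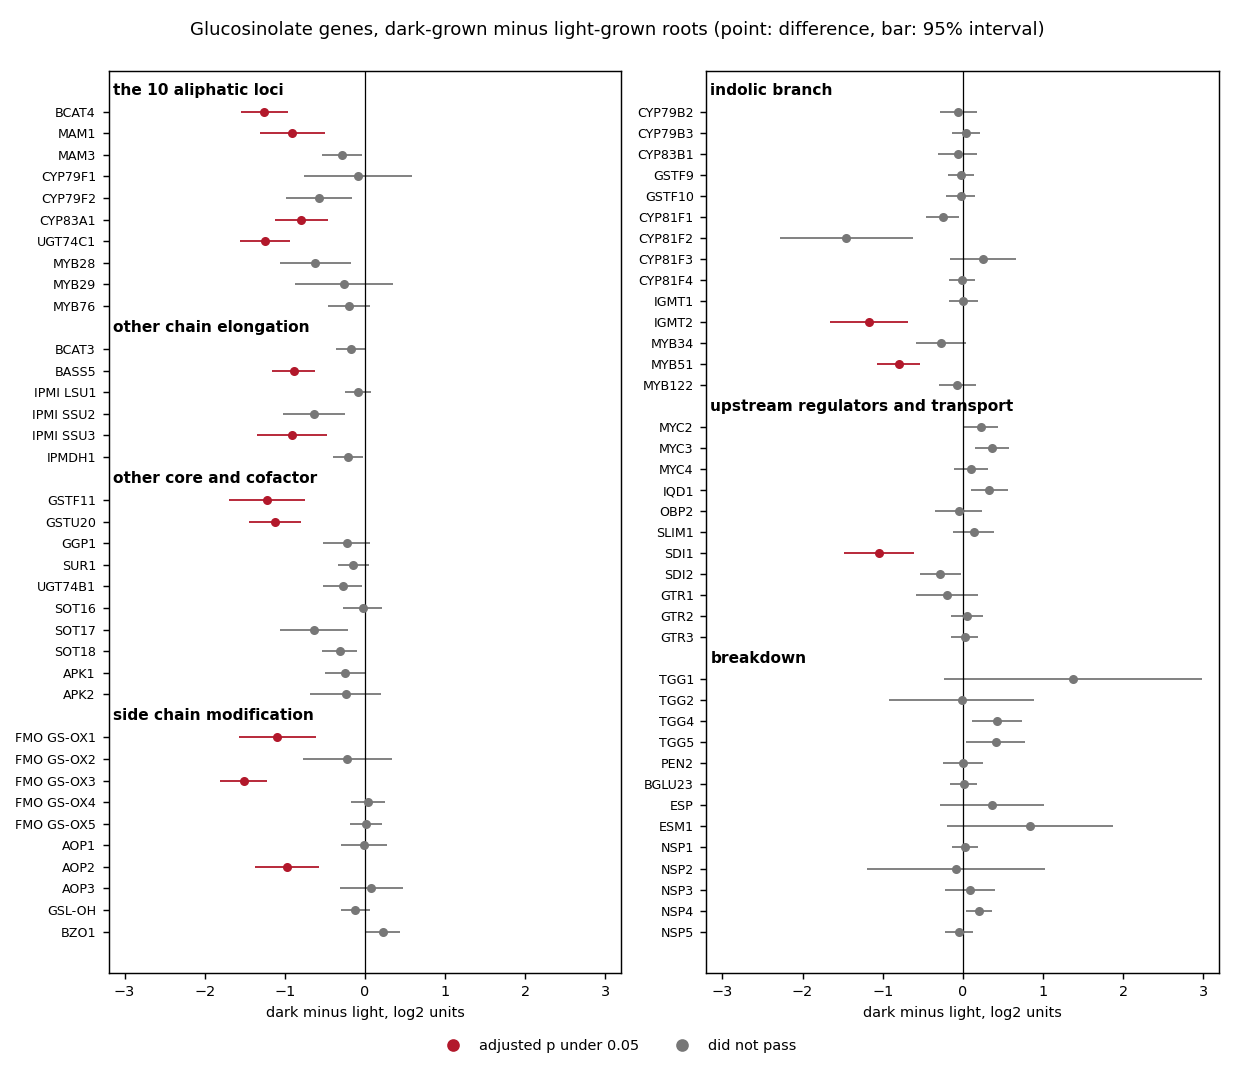
Difference (dark minus light, log2 units) with its 95% interval for the brightest model of each of the 74 glucosinolate loci, grouped by list; red points passed at adjusted p under 0.05. Of the 10 aliphatic loci 4 passed, all below 0, and no locus in the figure passed above 0.

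In the indolic branch 2 of 14 genes fell and 12 did not pass (median -0.06), and 7 of the 14 had means within 1 unit of the top. Over all loci 3.27% were lower, and 0.701% of those within 1 unit of the top. MYB51, an activator of indolic glucosinolate genes, read 13.64, 13.42 and 13.30 in dark-grown roots and 14.28, 14.18 and 14.31 in light-grown roots, and fell by 0.80 (SE 0.11, adjusted p = 0.0161 in limma). IGMT2, a methyltransferase of indolic glucosinolates, read 13.11, 12.75 and 12.66 in dark-grown roots and 14.37, 13.87 and 13.80 in light-grown roots, and fell by 1.17 (SE 0.20, adjusted p = 0.0304 in limma). MYB51 was called without dark replicate 1 (0.0284) and in none of the other 5 fits without 1 array (0.0507 to 0.0759), and IGMT2 was called in no fit without 1 array (0.0530 to 0.120). CYP81F2, chosen after its values were seen, differed by -1.45 (SE 0.34, adjusted p = 0.0722 in limma) and did not pass. Its dark arrays all lay below its light arrays, as in 12.0% of all loci. Of the 14 differences 11 were below 0 and 3 above. Whether the aliphatic and the indolic genes differed in response was not tested.

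Among 11 upstream regulators and transporters 1 fell, none rose and 10 did not pass (median 0.05). Over all loci 3.27% were lower and 2.46% higher. At an unadjusted p under 0.05, 2 of the 11 were lower and 3 higher, where 9.08% and 12.1% of all loci were. SDI1, a sulfur deficiency-induced protein that represses aliphatic glucosinolate synthesis by binding MYB28, read 14.20, 14.63 and 14.27 in dark-grown roots and 15.57, 15.56 and 15.12 in light-grown roots. It fell by 1.05 (SE 0.18, adjusted p = 0.0304 in limma), and of the fits without 1 array only that without light replicate 3 called it (0.0294, and 0.0527 to 0.114 in the others). MYC2, MYC3 and MYC4, bHLH partners of these MYB proteins, differed by 0.22 (SE 0.09), 0.36 (SE 0.08) and 0.10 (SE 0.09) and did not pass. The MYC genes were chosen after their values were seen. In this list 3 loci, MYC2 and MYC3 among them, had every dark array above every light array, and 2 had the reverse. Over all loci the shares were 16.2% and 12.0%.

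None of 13 breakdown genes, myrosinases and the proteins that direct their products, passed limma's test, with 0 lower and 3 higher at an unadjusted p under 0.05 (median 0.09), where 9.08% and 12.1% of all loci were. The myrosinase gene TGG4 read 14.66, 14.42 and 14.42 in dark-grown roots and 14.20, 14.16 and 13.87 in light-grown roots, a difference of 0.42 (SE 0.13, adjusted p = 0.128 in limma). The nitrile specifier gene NSP4 differed by 0.20 (SE 0.07, adjusted p = 0.156 in limma). Both had every dark array above every light array, as did 16.2% of all loci. With the variance prior that follows the signal level and is robust to outliers, both passed as higher (adjusted p = 0.0358 and 0.0223 in limma).

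Markers of root and shoot tissue were read beside these genes. The endodermis markers SCR and CASP1 averaged 14.40 and 15.83 in dark-grown roots and 14.06 and 15.80 in light-grown roots. SCR had every dark array above every light array and differed by 0.34 (SE 0.07, adjusted p = 0.0603 in limma) without passing. The root hair marker COBL9 averaged 15.03 in dark-grown and 14.78 in light-grown roots. Of 11 root markers, 1 was higher in dark-grown roots, the vessel regulator gene VND7 (0.47, SE 0.08, adjusted p = 0.0323 in limma), and 10 did not pass. Over all loci 2.46% were higher and 3.27% lower. The summed log2 levels of the root list ran from 157.08 to 157.67 in dark arrays and from 156.17 to 156.56 in light arrays. These ranges did not overlap, and the dark arrays were higher. In 3 of the 11, SCR, COBL9 and VND7, every dark array lay above every light array, as in 16.2% of all loci. Of the 11 differences 8 were above 0 and 3 below. SUC2 and the brighter APL model, of the phloem, differed by 0.08 (SE 0.12) and -0.14 (SE 0.09). Of 12 shoot markers, STM was higher (0.84, SE 0.12, adjusted p = 0.0202 in limma), KNAT1 was lower (-1.13, SE 0.15, adjusted p = 0.0147 in limma) and 10 did not pass. STM averaged 7.34 in dark-grown and 6.49 in light-grown roots, in the dim part of the scale. With the variance prior that follows the signal level, STM did not pass (adjusted p = 0.0574 in limma). The summed log2 levels of the shoot list ran from 106.24 to 107.48 in dark arrays and from 105.31 to 108.2 in light arrays, ranges that overlap. VND7 was called in no fit without 1 array, STM only without dark replicate 2, and KNAT1 only without 1 of the 3 light arrays. The part of these markers in the glucosinolate differences was not tested. The stomatal genes SPCH, MUTE and FAMA had means between 6.44 and 7.45 in both groups, in the dim part of the scale. The stomatal gene EPF1 averaged 7.93 in dark-grown and 7.65 in light-grown roots. FIL, YAB3 and CLV3 had means between 6.37 and 7.60. Other shoot markers were brighter. In dark-grown and light-grown roots AS1 averaged 13.82 and 13.70, KNAT1 11.69 and 12.82, CER1 12.14 and 11.93, and CER6 11.64 and 11.65. The markers named here that did not pass were chosen after their values were seen.

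The profile of the 7 enzymes was compared with that of every locus outside the lists (32530), as the root mean square difference of centred log2 levels over the 6 arrays. The median of that measure was 0.45 and the 5 closest loci with a symbol were APS3 (0.07), UGT87A2 (0.09), CTF2A (0.09), PAD4 (0.09) and CNGC13 (0.09). APS3, an ATP sulfurylase gene, read 13.55, 13.39 and 13.2 in dark-grown roots and 14.23, 13.97 and 14.16 in light-grown roots. It was picked for this likeness, so its order of arrays is no separate observation. UGT87A2, a glycosyltransferase gene, differed by -0.83 and the defence regulator gene PAD4 by -0.75. Within the glucosinolate lists, MYB51 was closer to the enzyme profile (0.05) than any of the 7 enzymes was, and MYB28 was at 0.19. Of the 7 enzymes only CYP79F2, MAM1 and CYP83A1 lay below 0.2, as did 442 of the 32530 loci outside the lists. The measure is a description over 6 arrays of 2 groups, and any locus with a similar difference between the groups comes out close in it.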

How the data were processed

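RNA from 3 root_dark and 3 root_light samples was copied into cDNA, labelled with Cy3 and hybridised to one-colour NimbleGen arrays, per the labels' protocols. The deposited values are log2 signals per transcript model. Their sorted values differed between arrays by at most 0.01, which is what quantile normalization before deposit leaves, and no scaling was added. The submitters' processing notes name limma. The sources used here do not state the background correction, the probe summary or the annotation release. Arrays have no read depth, and their number, 3 per group, limits the precision.

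The contrast of dark minus light came from limma 3.58.1, run in R 4.3.3 (lmFit, eBayes, two-sided, no covariate), with Benjamini-Hochberg adjustment over 37118 models. The fit was tested on simulated data. A locus with several models (3602 loci) was represented by its brightest. RefSeq's TAIR10.1 table (31993 loci matched, all 97 listed loci among them) gave symbols and neighbours, with no coordinates used because the array's build is not given. Genes named were the 10 loci, those past the threshold in each list (at most 5), the 2 with the lowest p where none passed, called markers, and the 5 closest profiles. Others are marked. The 10 loci and the lists were chosen with earlier results of these data known, so no list test is given. The labels do not state that equal replicate numbers share a plate, day or batch, so the numbers were not used as pairs. Same-number arrays had correlated deviations of 0.01, 0.06 and 0.41, the last being the highest of any dark and light array. With 3 centred arrays per group these values depend on each other and cannot settle whether arrays were paired. Alternatives were a replicate block, leaving out each array, median centring, a filter on dim models, another variance prior, array weights and the mean of a locus's models. Plots used matplotlib 3.10.9 under Python 3.11.15.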

Additional observations from a re-analysis of the deposited data

How the results depend on the processing

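Of the 10 genes, 4 were called lower, and the count was 2 to 3 without any 1 array, 1 with a replicate block (BCAT4; UGT74C1 had adjusted p = 0.0524) and 7 with the trend and robust variance prior. The 64 other glucosinolate loci gave 10 lower, 2 to 6 without any 1 array and 3 with the block, and 0 higher, 0 to 1 without any 1 array, 1 with dim models removed and 3 with the trend and robust prior. Over all models, 1196 lower and 903 higher became 607 to 905 and 158 to 473 without any 1 array, 668 and 290 with the replicate block, and 1852 and 1879 with the trend and robust prior. With dim models removed 1627 were higher. The replicate numbers share no stated origin. In its deviations dark replicate 2 correlated more with light replicate 1 (0.36) than with light replicate 2 (0.06), whereas dark replicate 3 correlated most with light replicate 3 (0.41). CYP79F1, never called, turned to 0.12 without dark replicate 3 and to 0.13 without light replicate 1, within a range of -0.29 (without dark replicate 1) to 0.13. The alternatives were followed for 25 named genes, namely the 10, the genes that the rule names in the other lists and the called markers. The other 24 of these kept their direction under each of the 12 alternatives that included them. Of the 17 that passed, 2 (BCAT4 and FMO GS-OX3) kept the call under every alternative. The closest profiles and the genes chosen after their values were seen were not followed. The causes of these changes were not tested. The fits without 1 array have fewer arrays, and the fit with the block has fewer residual degrees of freedom. Signals near the top of the scale may limit the size of a measured difference, which was not tested. The dim signals of MYB29 and MYB76 limit what can be read from them.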
